A study of Mus musculus with 4 samples.

Results

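The genes described here carry names from the search for testis transcripts: Tex (testis expressed), Tsga (testis specific gene) and the t-complex names Tcte and Tcp10 or Tcp11. They were taken by symbol from a table of log2 RPKM, which is reads corrected for the length of the gene and the depth of the library, on a log2 scale. All entries starting with Tex and a digit, Tsga, Tcte, Tcp10 or Tcp11 were kept, except Tex12 and Tex101. This gave 31 entries of 26068 named ones. Of these, 27 had a mean over the 4 libraries of at least 0 on the log2 scale, which is 1 RPKM, and entered the test. The same filter kept 13414 entries in all. The prefix Tcte also takes in 3 genes of the Tctex1 domain family, Tctex1d1, Tctex1d2 and Tctex1d4.

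RNA came from the whole testis of male B6D2F1 mice aged 24 days, the cross of a C57BL/6 and a DBA/2 parent. There were 2 libraries homozygous for the Adad2 knockout and 2 wild type libraries on the same background. The labels name the deletion by gene only, and do not say whether the replicates are separate animals, so the p-values measure only the spread between these libraries, which may be technical. Adad2 makes a testis protein of the adenosine deaminase domain family. By its title, the series asks about the making of piRNAs and about spermiogenesis, in which round spermatids take the form of sperm.

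The names in this gene family say where a transcript was found, not what its protein does, so the family holds unrelated proteins. Some act in spermatogonia and in meiosis, such as Tex14 in the bridges that join germ cells and Tex11 in crossing over. Others serve the spermatid and its tail, such as the dynein light chain Tcte3. A few, such as Tex264 in the turnover of the endoplasmic reticulum, work in cells of many tissues. The t complex is a region of chromosome 17 known for variants that pass to offspring more often than by chance, and Tcte3 and Tcp10 were named from it.

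Adad2 transcript was lower but still measured in both knockout libraries, and stage markers differed between the groups. Adad2 was at 3.73 and 3.30 log2 RPKM in knockout libraries and 4.66 and 4.47 in wild type libraries, 2.07-fold lower (limma adjusted p = 0.00604; 0.143 without wild type replicate 1 and 0.0838 without wild type replicate 2). Depth, estimated from the value of a single read, was 29400000 to 33000000 reads in knockout and 30200000 to 36900000 in wild type libraries. The summed level of 6 elongating spermatid markers was 62.4 and 32.4 RPKM in knockout and 768 and 736 RPKM in wild type libraries. That of 6 round spermatid markers was 120 and 95.3 RPKM in knockout and 315 and 275 RPKM in wild type. In each of these lists 5 of 6 markers fell. Of 6 spermatocyte markers 0 were called, with sums of 331 and 334 RPKM in knockout and 264 and 307 RPKM in wild type. None was called either among the 5 tested of 6 spermatogonial markers (sum of the 6, 36.2 and 41.3 RPKM in knockout, 32.9 and 32.4 RPKM in wild type), 5 Sertoli markers (103 and 107, against 86.3 and 85.6 RPKM), 6 Leydig markers (356 and 512, against 303 and 451 RPKM) and 4 macrophage markers (16.8 and 18.8, against 15.4 and 17.9 RPKM). No marker of any list was at the level of no reads in all libraries, a check that a marker with few reads also passes. The lowest mean level of a marker was 2.44 log2 RPKM in the Sertoli list, 2.02 in the Leydig list and 0.16 in the macrophage list. The 5 blood markers summed to 38.5 and 50.2 RPKM in knockout and 106 and 50.5 RPKM in wild type, highest in wild type replicate 1. In whole tissue, fewer cells of a type and less RNA per cell cannot be told apart, and the part of these markers in the changes below was not tested.

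Most of the tested genes of the family were not called. Of the 5 that changed, 3 were in the late germ cell list, which held 11 of the 27 tested. Tsga13, Tex21, Tsga8 and Tex13a fell and Tex261 rose at a Benjamini-Hochberg adjusted p under 0.05 (limma). That is 4 of 27 lower, beside 7.15% lower over all tested entries, and 1 of 27 higher, beside 1.22%, or 5 of 27 in either direction, beside 8.36%. The other 22 were not past the threshold. The median change over the 27 was -0.03 on the log2 scale, beside a median of 0.14 over all tested entries. Most of these calls were lost when a wild type library was left out. When wild type replicate 1 was left out, limma called 0 entries of the whole table; 2357 entries, 12 of the 27 genes among them, then had an unadjusted p under 0.05. When wild type replicate 2 was left out, Tsga13 (limma adjusted p = 0.0438) and Tsga8 (0.0426) were the 2 genes of the family called lower and 0 were called higher, with 288 lower and 22 higher entries over the whole table.

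**Figure D1:**
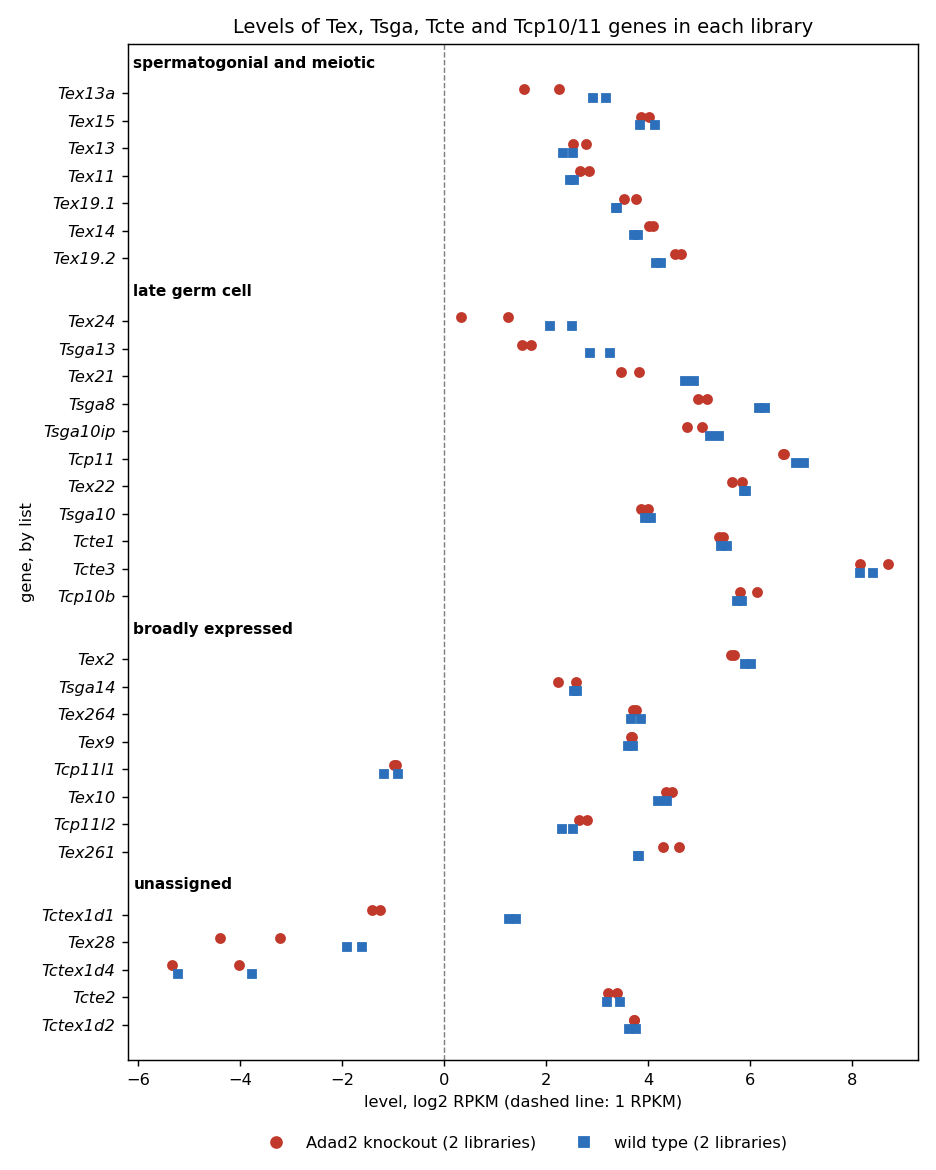
Level of each of the 31 genes in each library, in log2 RPKM on the x axis, with genes in 4 lists down the y axis; circles are the 2 Adad2 knockout libraries, squares the 2 wild type libraries, and the dashed line is 1 RPKM. Knockout circles lie left of the wild type squares for Tex13a, Tex24, Tsga13, Tex21, Tsga8 and Tctex1d1. The same holds for Tex28, Tsga10ip, Tcp11, Tex22 and Tex2. Tcte3 is the highest gene in both groups.

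Among 7 genes listed for spermatogonia and meiosis, 1 fell and 0 rose, beside 7.15% lower and 1.22% higher over all tested entries. The gene that fell was Tex13a, and the other 6 were not called. The median change of the 7 was 0.25; it was 0.34 without knockout replicate 1 and 0.14 without knockout replicate 2, beside 0.14 over all tested entries with all libraries. Their median level was 3.52 and 3.76 log2 RPKM in knockout libraries and 3.39 and 3.38 in wild type libraries. In 4 of the 7 both knockout libraries were above both wild type libraries, beside 46.4% of all tested entries, so this count is near the background. Tex19.2, a germ cell gene next to Tex19.1 on chromosome 11, had the highest change of the list. It was at 4.53 and 4.63 log2 RPKM in knockout libraries and 4.15 and 4.26 in wild type libraries, a change of 0.38 (95% confidence interval 0.135 to 0.62, limma adjusted p = 0.0709). The groups did not overlap, and the change was past the threshold after quantile normalization (adjusted p = 0.037) but not with the values as deposited. Tex19.1, which restrains retrotransposons in germ cells, was at 3.52 and 3.76 in knockout libraries and 3.39 and 3.38 in wild type libraries, a change of 0.26. These neighbours are close relatives and may share reads.

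Tex14, needed for the intercellular bridges of germ cells, was at 4.09 and 4.02 log2 RPKM in knockout libraries and 3.80 and 3.73 in wild type libraries. Its change was 0.29 (0.06 to 0.53, limma adjusted p = 0.124), with groups that did not overlap. Tex11, an X-linked gene of meiotic recombination, was at 2.67 and 2.84 in knockout libraries and 2.46 and 2.54 in wild type libraries, a change of 0.25 (-0.02 to 0.52). Tex15 acts in the repair of meiotic breaks and in silencing guided by piRNAs. It was at 4.02 and 3.86 in knockout libraries and 4.14 and 3.83 in wild type libraries, and the groups overlapped. Its change was -0.05, and the 95% confidence interval of -0.35 to 0.25 left room for a small change in either direction.

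The Tex13 genes of the X chromosome gave different results. Tex13a (ENSMUSG00000071686, chromosome X, 134742704 to 134744119, minus strand, mm9) was at 2.25 and 1.57 log2 RPKM in knockout libraries and 3.16 and 2.91 in wild type libraries. The table's Tex13 entry, which Gencode M21 names Tex13b, was at 2.52 and 2.77 in knockout libraries and 2.53 and 2.33 in wild type libraries. Tex13a was therefore lower in both knockout libraries, while the values of Tex13 overlapped. Tex13a fell 2.18-fold (log2 change -1.13, SE 0.24, limma adjusted p = 0.0471), from 207 and 115 reads in knockout and 357 and 366 reads in wild type libraries. Its adjusted p was 0.244 when wild type replicate 1 was left out, 0.154 when replicate 2 was, and 0.139 with no filter. The change of Tex13 was 0.22 (-0.09 to 0.53), and the difference between the changes of these genes was not tested. Tex13a was the gene of the spermatogonial and meiotic list that fell. The others of that list had changes of -0.05 to 0.38. The place of Tex13a in the list was assigned, and the stage at which it is expressed was not tested here.

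Among 11 genes listed for late germ cells, 3 fell and 0 rose, beside 7.15% lower and 1.22% higher over all tested entries. The late list named 27 symbols, of which 11 were found among the entries under those names. The spermatogonial and meiotic list named 12, of which 7 were found. The median change of the 11 was -0.32. Their median level was 5.16 and 4.99 log2 RPKM in knockout libraries and 5.43 and 5.55 in wild type libraries. The median changes of the late and the meiotic genes lay on opposite sides of 0, beside a median of 0.14 over all tested entries. Both lists were chosen with earlier results of these data known, and the difference was not tested. In 7 of the 11 both knockout libraries were below both wild type libraries, beside 16.8% of all tested entries. The largest called decrease was that of Tsga13. Tsga13 (ENSMUSG00000039032, chromosome 6, 30846981 to 30865573, minus strand, mm9) was at 1.71 and 1.51 log2 RPKM in knockout libraries and 3.24 and 2.86 in wild type libraries. It fell 2.71-fold (log2 change -1.44, SE 0.16, limma adjusted p = 0.00106). Both knockout libraries were lower than both wild type libraries, and with wild type replicate 1 left out the adjusted p was 0.0718.

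Tex21 and Tsga8 fell by nearly the same fold. Tex21 (ENSMUSG00000021056, chromosome 12, 77299679 to 77347733, minus strand, mm9) was at 3.83 and 3.47 log2 RPKM in knockout libraries and 4.90 and 4.72 in wild type libraries. It fell 2.24-fold (log2 change -1.16, SE 0.14, limma adjusted p = 0.00192). Tsga8, an X-linked gene of haploid germ cells, was at 5.16 and 4.99 in knockout libraries and 6.29 and 6.18 in wild type libraries, which is 1258 and 998 reads in knockout and 2525 and 2860 reads in wild type. Its SE of 0.11 was the smallest of the 4 genes that fell. Without wild type replicate 1, Tex21 (limma adjusted p = 0.0935) and Tsga8 (0.0547) missed the threshold, and so did Tex21 without wild type replicate 2 (0.0568).

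Tex24 had the largest change of the list but also the widest spread. It was at 1.24 and 0.32 log2 RPKM in knockout libraries and 2.50 and 2.07 in wild type libraries, with 138 and 65 reads in knockout and 303 and 274 reads in wild type. The groups did not overlap, and knockout replicate 2 had less than any other library. The change of -1.50 (-2.39 to -0.62) had a limma adjusted p of 0.0724 and was not called. It was past the threshold with 1 RPKM added before the logarithm (adjusted p = 0.0298), after quantile normalization (0.036) and without the intensity trend and robust estimation (0.0442), and also when knockout replicate 1 (4.23e-22) or knockout replicate 2 (3.62e-07) was left out, which leaves a lone knockout library that adds no spread.

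**Figure D2:**
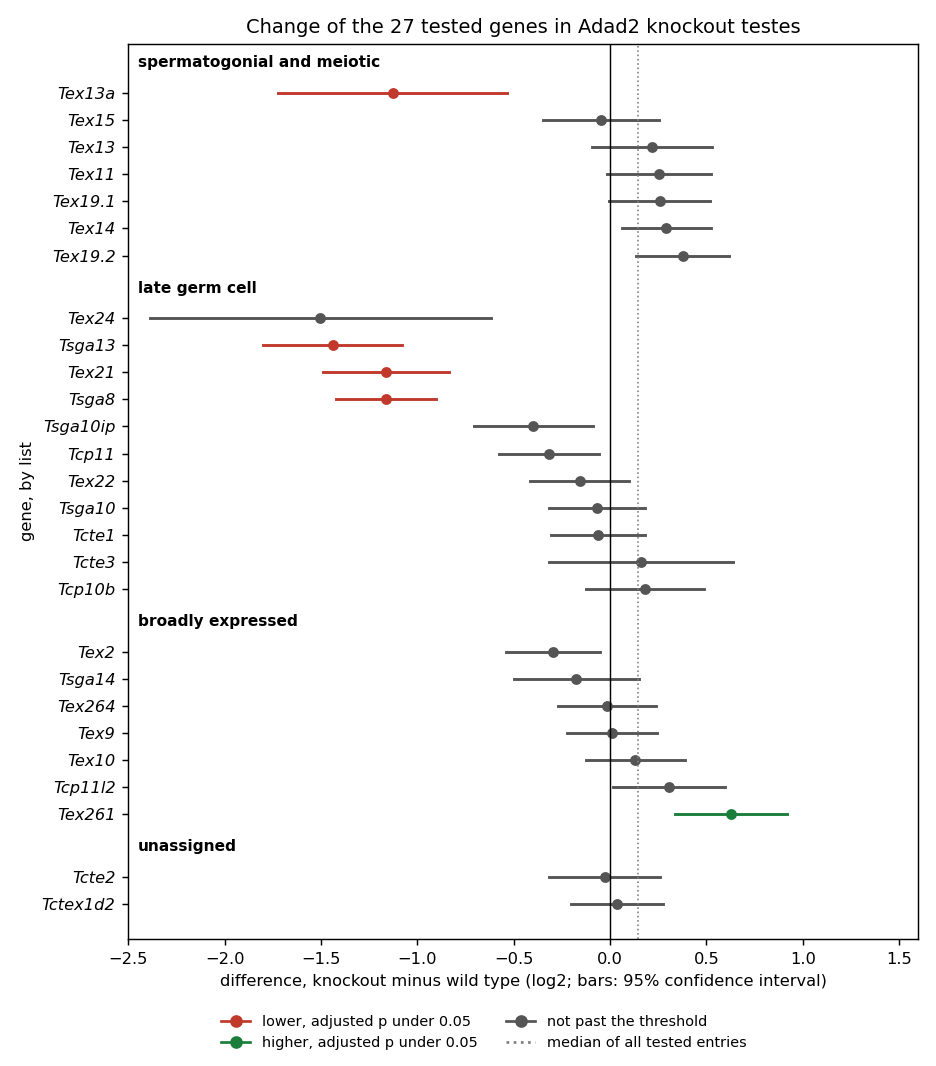
Difference in log2 RPKM, knockout minus wild type, of the 27 tested genes on the x axis, in 4 lists down the y axis; points are estimates, bars are 95% confidence intervals from limma, and colour marks genes past an adjusted p of 0.05. Tsga13, Tex21, Tsga8 and Tex13a lie at -1.44 to -1.13, Tex261 at 0.63, and the dotted line marks the median of all tested entries, 0.14.

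The other late genes differed less between the groups, and they include the most abundant genes of the family. Tcte3, a dynein light chain of the t complex, was the highest, at 8.71 and 8.16 log2 RPKM in knockout libraries and 8.15 and 8.40 in wild type libraries. Its geometric means were 346 RPKM in knockout and 310 RPKM in wild type, the groups overlapped, and the change was 0.16 (-0.32 to 0.64). Tcp11, a t-complex gene with a part in sperm motility, came next, at 6.67 and 6.64 in knockout libraries and 6.89 and 7.05 in wild type libraries. Its groups did not overlap, and its change of -0.32 (-0.58 to -0.06, limma adjusted p = 0.128) was past the threshold after quantile normalization (0.0126) and not otherwise.

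Next by level was Tcp10b, of a t-complex family with near-identical copies that may share reads, at 6.13 and 5.80 log2 RPKM in knockout libraries and 5.73 and 5.83 in wild type libraries. Its groups overlapped, and its change was 0.18 (-0.12 to 0.49). Tex22 was at 5.83 and 5.65 in knockout libraries and 5.88 and 5.91 in wild type libraries, a change of -0.16 (-0.41 to 0.10), with knockout just below wild type. Tcte1, a subunit of the nexin-dynein regulatory complex that coordinates the beat of the tail, was at 5.46 and 5.39 in knockout libraries and 5.43 and 5.55 in wild type libraries. Its change was -0.06 (-0.31 to 0.18) and its groups overlapped. In the order of levels, the ranges of the neighbours Tcp10b, Tex22 and Tex2 overlapped.

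Tsga10 and Tsga10ip belong together by name, the second being a protein that binds the first. Tsga10, a protein of the sperm tail and its attachment to the head, was at 3.998 and 3.86 log2 RPKM in knockout libraries and 3.93 and 4.06 in wild type libraries. Tsga10ip was at 5.05 and 4.75 in knockout libraries and 5.20 and 5.40 in wild type libraries. Tsga10 overlapped between the groups, with a change of -0.07 (-0.32 to 0.18). Tsga10ip did not overlap, and its change was -0.40 (-0.71 to -0.09, limma adjusted p = 0.117), which was not called. The change was -0.55 without knockout replicate 1 and -0.25 without knockout replicate 2. It was -0.50 without wild type replicate 1 and -0.30 without wild type replicate 2.

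Tctex1d1 had the largest fold difference of all 31 genes and stood just outside the filter. It belongs to the Tctex1 family of dynein light chains and lies on chromosome 4 from 102658984 to 102678199 on the plus strand (ENSMUSG00000028523, mm9). It was at -1.26 and -1.42 log2 RPKM in knockout libraries and 1.40 and 1.27 in wild type libraries, about 40 and 32 reads in knockout and 233 and 261 reads in wild type. Both knockout libraries were far below both wild type libraries, and the replicates of each group were close. The mean over all 4 libraries was -0.000586, under the limit of 0, so it was not tested with the 27; the nearest gene inside was Tex24 with a mean of 1.53. When all named entries were tested, Tctex1d1 fell 6.39-fold (log2 change -2.68, SE 0.21, limma adjusted p = 0.00616), beside 4.14% of entries lower, 0.372% higher and 4.51% in either direction in that test. With wild type replicate 1 left out its adjusted p was 0.0939, and with replicate 2 left out 0.0718.

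Of the other genes outside the filter, Tex28 and Tctex1d4 had few reads. Tex28, on the X chromosome, had 5 and 2 reads in knockout libraries and 14 in each wild type library. Its log2 RPKM was -3.23 and -4.39 in knockout and -1.62 and -1.91 in wild type, and it was not past the threshold when all named entries were tested (limma adjusted p = 0.106). Tctex1d4 had 0 and 2 reads in knockout libraries and 0 and 3 in wild type libraries, too few to show a difference. Tcp11l1 was at -0.95 and -0.99 log2 RPKM in knockout and -0.91 and -1.18 in wild type. It had 117 and 102 reads in knockout libraries and 111 and 112 reads in wild type libraries. Tctex1d2, a light chain of the dynein that works in cilia, passed the filter and was at 3.73 and 3.72 in knockout libraries and 3.61 and 3.76 in wild type libraries. Its change was 0.04 (-0.21 to 0.28), with groups that overlapped.

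Among the genes that fell and had a RefSeq promoter window, which leaves out Tex13a, no motif searched was common to all. To show this, the 250 bases before the start in RefSeq, build GRCm38.p6, are given 5′ to 3′ on the strand of the gene for the 4 genes with the clearest decreases and a window in the table. The stretches are chr4:102978453-102978702 on the plus strand for Tctex1d1, chr6:30915574-30915823 on the minus strand for Tsga13, chr12:76246747-76246996 on the minus strand for Tex21 and chrX:83487925-83488174 on the minus strand for Tsga8. Capitals mark TGACG, the core of the cAMP response element that Crem binds in spermatids, and GGTTGC, letters of the X-box that RFX factors bind, on either strand.
Tctex1d1: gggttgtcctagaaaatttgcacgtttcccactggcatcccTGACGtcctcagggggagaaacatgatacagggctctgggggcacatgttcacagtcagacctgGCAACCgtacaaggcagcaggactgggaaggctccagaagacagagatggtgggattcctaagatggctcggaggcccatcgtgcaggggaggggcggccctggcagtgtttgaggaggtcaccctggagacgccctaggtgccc
Tsga13: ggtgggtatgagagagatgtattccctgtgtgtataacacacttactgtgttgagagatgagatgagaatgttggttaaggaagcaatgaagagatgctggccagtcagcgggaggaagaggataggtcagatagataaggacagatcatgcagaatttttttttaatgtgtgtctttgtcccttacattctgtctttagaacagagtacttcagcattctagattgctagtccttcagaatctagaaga
Tex21: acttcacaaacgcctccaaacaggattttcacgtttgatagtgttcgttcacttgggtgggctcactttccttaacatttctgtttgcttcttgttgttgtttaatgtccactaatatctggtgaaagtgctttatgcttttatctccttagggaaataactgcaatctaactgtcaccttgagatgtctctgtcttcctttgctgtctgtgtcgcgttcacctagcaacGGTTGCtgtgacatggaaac
Tsga8: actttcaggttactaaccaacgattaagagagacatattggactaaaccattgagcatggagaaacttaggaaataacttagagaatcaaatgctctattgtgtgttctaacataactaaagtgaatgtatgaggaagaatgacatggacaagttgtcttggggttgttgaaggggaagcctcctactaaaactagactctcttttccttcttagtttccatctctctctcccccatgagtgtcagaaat

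TGACG stands at -209 from the start in Tctex1d1 and is in none of the other 3 stretches shown. Of 25 genes of the family with a window, 3 held TGACG on either strand, beside 19.8% of 27025 genes with windows of the same length. The full element TGACGTCA was in 0 of the 25, beside 1.77%, and AACTGCC, the core that MYB factors bind, in 2, beside 3.86%. GGTTGC, which was added after the sequences were read, was at -145 in Tctex1d1 and at -20 in Tex21, on either strand. It was in 8 of the 25, beside 11.5%, including Tcte3, Tex14 and Tsga10ip, which were not called. A match describes the letters of these windows and is not a binding site.

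Opposite-strand entries of the table overlapped several of these genes. The use of strand in counting is not given in the sources used here, so reads of such pairs may not have been told apart. BB031773, on the strand opposite Tctex1d1 and over its end, was at -2.82 and -2.75 log2 RPKM in knockout libraries and -0.20 and -0.32 in wild type libraries. It was under the filter and fell when all named entries were tested (limma adjusted p = 0.015), so BB031773 and Tctex1d1 were low in the same libraries. Gm12709, also opposite Tctex1d1 but over its start, was at -4.39 and -5.82 in knockout libraries and -2.15 and -3.82 in wild type libraries (limma adjusted p = 0.29 without a filter). 4930412F09Rik, which spans the whole of Tsga13 on the opposite strand, was at -4.07 and -2.58 in knockout libraries and -0.85 and -1.77 in wild type libraries (adjusted p = 0.221 without a filter). Gm17441, opposite Tcte1, was at 5.39 and 5.23 in knockout libraries and 5.40 and 5.39 in wild type libraries, a level close to that of Tcte1. Tsga8 and Tex13a lie within the span of much larger genes on the opposite strand, Dmd and Il1rapl2, with mean levels of -0.75 and -7.11 log2 RPKM. On the same strand, 4930526A20Rik lies within Tcp11, at a mean of 3.09. Gm16046, Gm16049 and Gm16052 lie within Tcte2 on its strand, all under the filter.

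Position gave no common direction. On chromosome 17, Tcp10b, Tcte2, Tcte3, Tcp11 and Tcte1 were all tested and 0 of 5 were called, with changes of -0.32 to 0.18. Tcte2 was at 3.39 and 3.21 log2 RPKM in knockout libraries and 3.20 and 3.45 in wild type libraries, which overlapped. Of 5 genes on the X chromosome, 4 were tested: Tsga8 and Tex13a fell, and Tex11 and Tex13 were not called, with changes of 0.25 and 0.22.

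Of 7 tested genes with roles in many tissues, 1 rose and 0 fell, beside 1.22% higher and 7.15% lower over all tested entries, and their median change was 0.01. The gene that rose was Tex261, a membrane protein of traffic out of the endoplasmic reticulum (ENSMUSG00000014748, chromosome 6, 83718875 to 83725806, minus strand, mm9). It was at 4.60 and 4.28 log2 RPKM in knockout libraries and 3.83 and 3.80 in wild type libraries, and the groups did not overlap. It rose 1.55-fold (log2 change 0.63, SE 0.13, limma adjusted p = 0.0176), and its change was above that of 99.0% of all tested entries. Its adjusted p was 0.197 when wild type replicate 1 was left out, 0.17 when replicate 2 was, 0.07 with no filter and 0.0562 without the intensity trend and robust estimation.

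Tex2, a lipid-binding protein of the endoplasmic reticulum, was the most abundant of these genes. It was at 5.63 and 5.68 log2 RPKM in knockout libraries and 5.89 and 6.01 in wild type libraries, a change of -0.30 (-0.54 to -0.05, limma adjusted p = 0.133). Its groups did not overlap, and it was past the threshold after quantile normalization (0.0368). Tcp11l2, a relative of Tcp11, was at 2.64 and 2.80 in knockout libraries and 2.52 and 2.31 in wild type libraries, a change of 0.31 (0.02 to 0.60) that was not called. Tex264, a receptor for the breakdown of the endoplasmic reticulum, and Tex9 had changes of -0.02 (-0.27 to 0.24) and 0.01 (-0.22 to 0.24). Tex10, of a complex for ribosome maturation, had a change of 0.13 (-0.12 to 0.39), and Tsga14, which Gencode M21 names Cep41, a centriole protein, one of -0.17 (-0.50 to 0.15). In all 4 the groups overlapped.

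Genes of the complexes and processes in which these proteins work were listed as well, with the CatSper channel, the setting of Tex40, which was not analysed here. Of 46 listed, 43 were tested, 6 fell and 0 rose, beside 7.15% lower and 1.22% higher over all tested entries. Of the 6 that fell, 4 were CatSper genes. The median change of the 43 was 0.12, beside 0.14 over all tested entries. Of 3 genes of the intercellular bridge, 9 of meiotic crossing over and 4 tested genes of retrotransposon control, the partners of Tex14, Tex11 and Tex15 or Tex19.1, 0 were called, with medians of 0.15, 0.19 and 0.34. The last median leaves out Piwil4 and Dnmt3l, which were under the filter; Dnmt3l, a cofactor of DNA methylation in germ cells, was at -0.79 and -1.51 log2 RPKM in knockout libraries and 0.71 and 0.20 in wild type libraries. Ubr2, the ubiquitin ligase that binds Tex19.1, was at 2.56 and 2.62 log2 RPKM in knockout libraries and 2.28 and 2.22 in wild type libraries, a change of 0.34 (0.08 to 0.60, limma adjusted p = 0.112).

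Of 8 genes of the nexin-dynein regulatory complex, to which Tcte1 belongs, 1 fell, beside 7.15% of all tested entries, and the median change was 0.03. The gene that fell was Fbxl13, at 2.25 and 1.69 log2 RPKM in knockout libraries and 3.79 and 3.58 in wild type libraries, 3.29-fold lower (limma adjusted p = 0.00281). Gas8, another subunit, was at 4.67 and 4.60 in knockout libraries and 4.56 and 4.66 in wild type libraries, and overlapped. Of 7 tested genes listed for outer arm dynein, the setting of Tcte3, 0 were called, with a median of 0.09 and changes of -0.21 to 0.22. The list took in Dynlt1a, with a change of -0.21, and Dynlt3, with 0.01, light chains of the Tctex1 family. Of 3 genes at the base of the tail, listed with Tsga10 and Tcp11, Odf1, an outer dense fibre protein that is also among the elongating spermatid markers, fell 4.48-fold (adjusted p = 0.00272), while Ift20 and Odf2 were not called.

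CatSper is the calcium channel of the sperm tail, and none of the 31 genes is among its subunits. Of its 9 genes, 4 fell, beside 7.15% of all tested entries, and the median change was -0.12. Catsper1 was at 2.37 and 1.65 log2 RPKM in knockout libraries and 4.38 and 4.03 in wild type libraries, 4.58-fold lower (limma adjusted p = 0.00993). The other pore subunits Catsper3 and Catsper4 fell 4.48-fold and 3.93-fold, and the accessory protein Efcab9 fell 3.37-fold. The fourth pore subunit, Catsper2, was at 5.63 and 5.32 in knockout libraries and 5.43 and 5.53 in wild type libraries, and the groups overlapped. Catsper1, Catsper3, Catsper4, Efcab9 and Fbxl13 missed the threshold without wild type replicate 1 or 2 (adjusted p of 0.0513 to 0.1), and Odf1 missed it without wild type replicate 1 (0.0718).

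**Figure D3:**
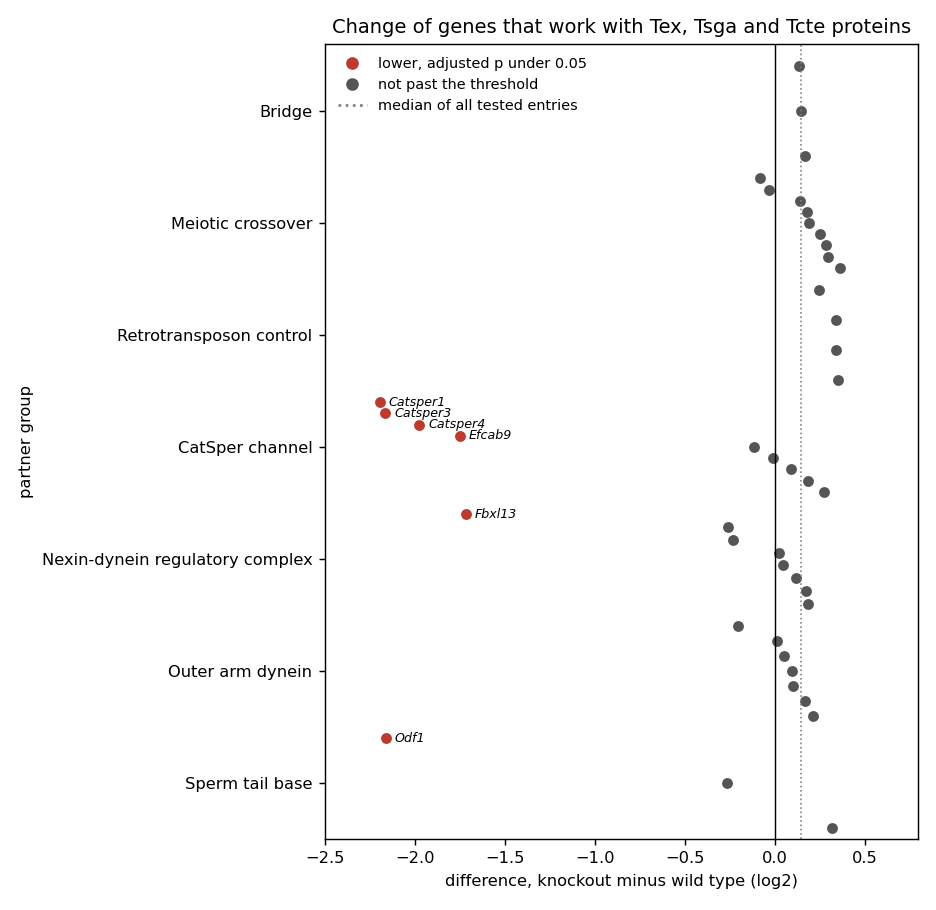
Difference in log2 RPKM, knockout minus wild type, of the 43 tested partner genes on the x axis, by partner group on the y axis; each point is a gene, red points are past an adjusted p of 0.05 (limma), and the dotted line is the median of all tested entries, 0.14. The 6 red points lie in the CatSper channel, nexin-dynein and tail base groups, at -2.20 to -1.72, and the other points lie between -0.27 and 0.36.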

How the data were processed

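Total RNA of whole testes from 4 samples was sequenced after TruSeq RNA library preparation, per the labels' protocols. Bowtie2, bcl2fastq 2.17.1.14 and mm9 are named in the submitters' processing notes. Counting tool, annotation release and strand setting: not given in the sources used here. The authors deposited log2 RPKM per gene. Of 26127 entries, 59 (0.226%) name no gene and were left out. Columns called control and null were tied to samples by the group and number in their labels. The authors' mean columns were left aside. Values give no counts. Genes without reads carry 0.9 of a read, which put the depth at 29400000 to 36900000 reads. Exon lengths from Gencode M21 turned levels into reads per gene; it served for lengths and names only, since that release is on another build. For 17 genes of the 31 they came out whole within 0.02 reads in all libraries; other read numbers are approximate.

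Knockout was compared with wild type by limma 3.58.1 in R 4.3.3 (statmod 1.5.0; empirical Bayes, intensity trend, robust; two-sided, unpaired), fitted to all entries with a mean of at least 0, with Benjamini-Hochberg adjustment over all of them at 0.05. The code was tested on simulated data. With 2 libraries a group, the smallest two-sided p of an exact permutation test is 0.333. The members, the gene lists and the rule for naming were chosen with earlier results of these data known: every tested member is named, with all library values for those called or most abundant, and partner genes past the threshold. Ubr2, Gas8, Catsper2, Ift20, Odf2 and Dnmt3l, which were not past it, were named after their values were seen. Stage and partner lists were described by counts and medians. Nothing in the labels ties libraries of equal number, so the main fit has no block. Alternatives were other filters, a pseudocount of 1 RPKM, equal library medians, quantile normalization, a replicate block, limma with neither trend nor robust estimation, and leaving out each library.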

Additional observations from a re-analysis of the deposited data

How the results depend on the processing

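Medians of the late germ cell and the spermatogonial and meiotic genes moved by less than the spread between libraries in all alternatives, the second ranging over 0.14 to 0.34 when a library was left out. Over all entries, 959 lower and 163 higher calls became 637 lower with a filter at a mean of 2, 97 higher without a filter and 245 higher after quantile normalization. Leaving out a library in turn gave 0 to 1308 lower and 0 to 494 higher entries, and a group then rests on a lone library assumed to vary like the other group. Of the family, 0 to 6 genes were lower and 0 to 1 higher when a library was left out, 7 lower and 2 higher after quantile normalization, and 0 higher without a filter or without trend and robust estimation. With the replicate number as a block, 1477 entries were lower and 1837 higher, and of the family 6 were lower, with Tex24 (limma adjusted p = 4.22e-21) and Tsga10ip (0.0112) added, and 4 higher, with Tex14 (0.0352), Tex19.2 (0.00727) and Tcp11l2 (0.0402) added; deviations of libraries with equal numbers correlated at r = 0.331 over genes, but nothing in the labels pairs them. Adad2 kept its direction, with log2 changes of -1.262 to -0.838 when a library was left out and limma adjusted p of 0.143 without wild type replicate 1 (-0.957) and 0.0838 without wild type replicate 2 (-1.14). Uncalled genes close to 0 changed sign when a library was left out, over ranges of -0.1237 to 2.96e-05 for Tcte1, -0.1547 to 0.1006 for Tcte2, -0.1127 to 0.4328 for Tcte3, -0.0395 to 0.1113 for Tctex1d2, -0.2011 to 0.1057 for Tex15, -0.1165 to 0.08289 for Tex264, -0.04341 to 0.06522 for Tex9, -0.1355 to 0.0004838 for Tsga10 and -0.3523 to 0.003658 for Tsga14. The causes were not tested. The alternatives for Tctex1d1 and for the partner genes were chosen after seeing the data. At this depth, differences in Tctex1d4 and Tex28, with at most 14 reads a library, could not be settled.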
